A study of Mus musculus with 3 samples.

Results

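Microglia of mice that carry the short human CD33 isoform (hCD33m) were compared with microglia of mice that carry the long isoform (hCD33M), with 1 single-cell RNA library on each side. The comparison rests on 8695 cells, 4835 from the hCD33m library and 3860 from the hCD33M library, out of 12177 barcodes in both libraries and 18340 in the series. Cells were taken where they had more than 200 and at most 8000 genes, at most 10% mitochondrial UMIs (unique molecular identifiers, each standing for 1 captured transcript) and at least 2000 UMIs. In addition the 5 border macrophage genes Mrc1, Ms4a7, Cd163, Lyve1 and Cbr2 and the 3 monocyte genes Plac8, Ly6c2 and Chil3 each had to sum to fewer than 5 UMIs in a cell. The same limits left 4043 cells of the control library, whose values are given beside the contrast.

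All mice were 8 weeks old. The hCD33m and hCD33M mice both carry the human isoform as a knock-in at the Rosa26 locus, behind a stop cassette that Cx3cr1-Cre removes, so that a CAG promoter drives it in the microglial lineage, and the control is labelled wild type. The hCD33m line was derived from a single embryonic stem cell clone. Per the study's methods, each library pooled a pair of mice, brains were handled ice-cold with inhibitors of transcription (actinomycin D and triptolide) and of translation (anisomycin), and cells were sorted as CD11b+CD45lowCx3cr1+. Only mouse genes were counted, so the transgenes themselves could not be used to check the genotypes. With 1 library per genotype the spread between mice cannot be measured, and genotype, mice, isolation and library cannot be told apart in any difference given here.

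CD33 is a Siglec, a receptor that binds sialic acid through its outermost V-set domain and carries inhibitory tyrosine motifs (ITIMs) in its cytoplasmic tail. In the human gene the V-set domain is encoded by exon 2. The long isoform hCD33M has this domain, and hCD33m lacks it while keeping the transmembrane and cytoplasmic parts. The question behind the contrast is whether the short isoform acts only as a missing long isoform or has an action of its own in microglia, the resident macrophages of the brain. Some of the genes described below are immediate early genes, which are transcribed within minutes of a stimulus without new protein synthesis, and in microglia some of them are also induced when tissue is dissociated.

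The cells compared held 35734985 UMIs in the hCD33m library and 29872654 in the hCD33M library, with a median of 5396 and 5280.5 UMIs per cell. In both libraries the microglial genes were abundant. P2ry12, the purinergic receptor that marks homeostatic microglia, was at 3554 CPM (its UMIs per 1000000 UMIs of the cells compared) in hCD33M and 3399 CPM in hCD33m. Summed markers of other cells, in hCD33M and hCD33m, were at 4.15 and 4.93 CPM for neurons, 0.368 and 0.448 CPM for neutrophils, 288 and 350 CPM for lymphocytes, 102 and 110 CPM for oligodendrocytes, 236 and 197 CPM for astrocytes, 537 and 515 CPM for endothelial cells, 282 and 223 CPM for border macrophages and 243 and 0.140 CPM for red cells. Among the members of these lists with at least 20 CPM in either library, only red cell genes passed 1.5-fold. Few members reached that level, and the rest could not be counted as higher or lower. It was reached by 0 of 8 neuron, 0 of 7 neutrophil, 2 of 9 lymphocyte and 3 of 8 oligodendrocyte markers. Of the astrocyte markers 1 of 8 reached it, of the endothelial 2 of 7 and of the border macrophage 1 of 9, which was Stab1. Cells rich in Mrc1, Ms4a7, Cd163, Lyve1 and Cbr2 had been left out by the rule. The border macrophage level is therefore only what that rule left. Fewer than 2000 UMIs was the main reason for leaving out a barcode, and applied to 31.3% of the otherwise acceptable hCD33M barcodes, 18.3% of hCD33m and 30.1% of control barcodes. Doublets were limited by the maximum of 8000 genes alone, and 6 of the cells compared shared a barcode between the 2 libraries. In the labels the hCD33m mice are female and the rest male, whereas the study describes male mice. Xist, the RNA of the inactive X chromosome, was not listed in either transgenic library, and the Y-linked gene Ddx3y reached 104 CPM in hCD33M, 95.4 CPM in hCD33m and 94.3 CPM in control, so the library labelled female held Y-linked transcripts at the level of the libraries labelled male.

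The transcriptomes of the 2 libraries were close over most genes. Of 6771 genes with at least 20 CPM in either library, 94.0% were within 1.2-fold and 75.4% within 1.1-fold of each other, and the median log2 ratio of hCD33m over hCD33M was -0.001. A gene was counted as higher or lower where the ratio was at least 1.5-fold and its 95% counting interval left out 0 on the log2 scale. By this rule of size, which is not a test, 34 genes (0.502%) were higher and 16 genes (0.236%) were lower in hCD33m. A gene could reach 20 CPM only in the library where it was higher, so near that level the limit itself favours a difference. Of these, 11 higher and 12 lower genes were in none of the 45 gene lists read here. Intervals of levels, ratios and shares below are exact and cover counting error only. Those of list medians describe the spread over member genes and hold no counting error.

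**Figure D1:**
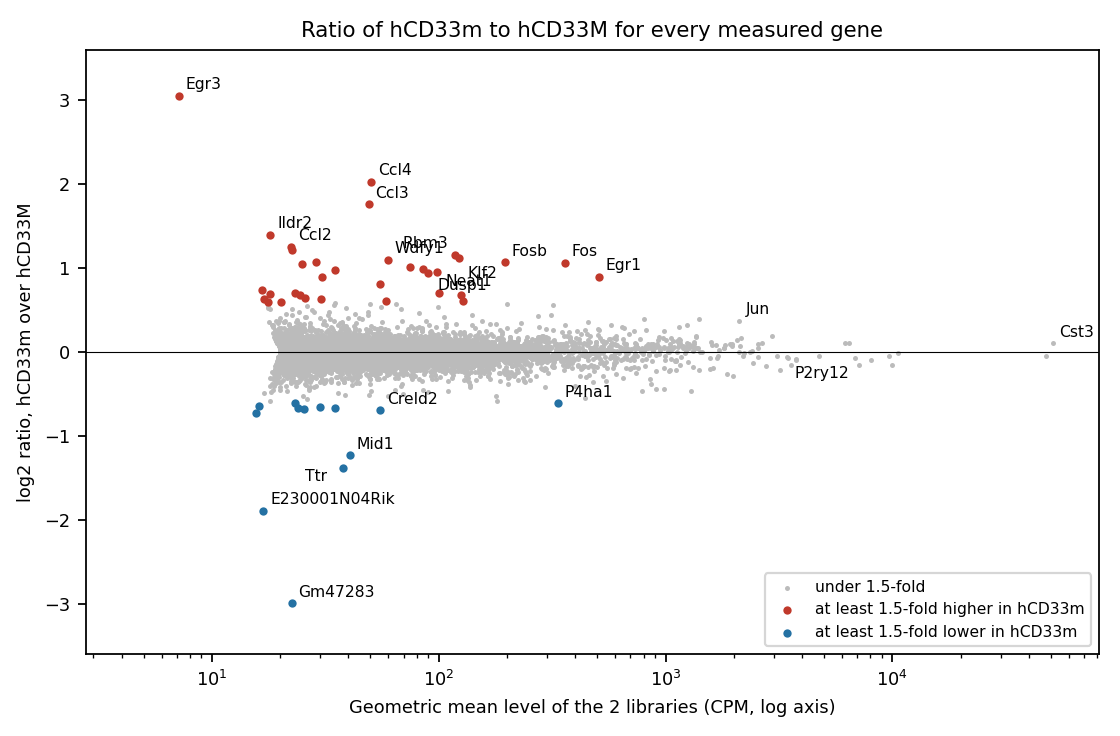
The log2 ratio of hCD33m over hCD33M (vertical axis) is plotted against the geometric mean level in the 2 libraries in CPM (horizontal log axis), with 1 point per measured gene. The 34 higher genes are red and the lower genes blue, and most genes lie along 0. Hba-a1, Hba-a2 and Hbb-bs are outside the axes.

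Of the AP-1 genes, Fos and Fosb were higher in hCD33m and the other measured members differed by less than 1.5-fold. Fos and Fosb, which pair with Jun proteins to form AP-1, had nearly the same ratio. Fos was at 520 CPM in hCD33m, 248 CPM in hCD33M and 56.2 CPM in control, a 2.10-fold difference between the isoforms (log2 1.07, interval 1.03 to 1.11). Fosb was at 285 CPM in hCD33m, 136 CPM in hCD33M and 40.3 CPM in control (log2 1.07, 1.02 to 1.12). In the 7 measured of 11 listed AP-1 genes all ratios were above 0, 2 passed 1.5-fold and the median log2 ratio was 0.37 (interval over members 0.02 to 1.07). The Jun genes differed less than their Fos partners. Jun was at 2405 CPM in hCD33m and 1855 CPM in hCD33M (log2 0.37, 0.36 to 0.39), against 1035 CPM in control. Junb was at 924 and 705 CPM (log2 0.39, 0.37 to 0.42), and Jund at 1275 and 1038 CPM (log2 0.30, 0.28 to 0.32). Batf3 was nearly level at 57.3 and 56.4 CPM.

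The zinc finger factors of the Egr family and the Ier genes, which are also switched on early by growth factor and MAP kinase signals, mostly showed the same order of libraries. Of 13 listed genes 5 were measured, and 4 of these 5 were higher in hCD33m, against 0.502% of all measured genes. The other 8 were under 20 CPM in both libraries and were not read. Egr3 reached 20 CPM only in hCD33m, so it was counted only through the library where it was high. Egr1 was at 691 CPM in hCD33m, 371 CPM in hCD33M and 132 CPM in control (log2 0.89, 0.86 to 0.93). Egr3 had the largest ratio of the 34 higher genes, with 20.6 CPM in hCD33m, 2.48 CPM in hCD33M and 1.23 CPM in control, which is 8.33-fold between the isoforms (log2 3.06, 2.71 to 3.42). It was rare in every library and was found in 2.92% of thinned hCD33m and 0.363% of thinned hCD33M cells (7.26% and 1.32% before thinning). Ier2 was at 137 CPM in hCD33m, 70.9 CPM in hCD33M and 32.4 CPM in control (log2 0.95, 0.88 to 1.03). Ier3 was nearly level in hCD33M (22.3 CPM) and control (22.0 CPM) and was at 41.6 CPM in hCD33m (log2 0.90, 0.77 to 1.04). Ier5 was at 475 and 440 CPM in hCD33m and hCD33M (log2 0.11, 0.08 to 0.14).

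Among Kruppel-like factors the difference was limited to particular members. Klf2, which restrains inflammatory gene expression in myeloid and endothelial cells, was at 181 CPM in hCD33m, 83.0 CPM in hCD33M and 21.0 CPM in control (log2 1.12, 1.06 to 1.19). Klf4, a related factor of monocytes and macrophages, was at 106 CPM in hCD33m, 52.7 CPM in hCD33M and 9.54 CPM in control (log2 1.01, 0.93 to 1.10). Klf6 was at 318 and 236 CPM in hCD33m and hCD33M (log2 0.43, 0.38 to 0.47). Klf7 lay the other way, at 118 CPM in hCD33m and 149 CPM in hCD33M (log2 -0.33, -0.39 to -0.27). Of 6 measured members 3 were above 0, with a list median of 0.18.

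Genes that shut down such responses were also partly higher in hCD33m. Dusp1, a phosphatase that inactivates MAP kinases, was at 125 CPM in hCD33m, 64.7 CPM in hCD33M and 19.0 CPM in control (log2 0.95, 0.87 to 1.03). Ppp1r15a, which reverses the block on translation after stress, was at 72.6 CPM in hCD33m, 47.5 CPM in hCD33M and 25.9 CPM in control (log2 0.61, 0.52 to 0.71). Nfkbiz, an inducible nuclear IkB protein, was at 32.3, 20.7 and 20.3 CPM (log2 0.64, 0.50 to 0.79). These were 3 of the 13 measured feedback genes, whose median log2 ratio was 0.11. Other members of the list had ratios below 0, such as Trib1, a pseudokinase, at 93.9 CPM in hCD33m and 129 CPM in hCD33M (log2 -0.46, -0.53 to -0.39), and Dusp6, the ERK phosphatase, at 480 and 582 CPM (log2 -0.28, -0.31 to -0.25). Among 7 measured genes of mRNA decay and growth arrest none passed 1.5-fold and all 7 were above 0. Zfp36, which destabilises cytokine mRNAs, was at 386 CPM in hCD33m and 262 CPM in hCD33M (log2 0.56, 0.52 to 0.60), and Btg2, an antiproliferative cofactor of deadenylation, was at 1604 and 1224 CPM (log2 0.39, 0.37 to 0.41).

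The 9 genes that the study names for its immediate early cluster had a summed level of 8706 CPM in hCD33m, 6676 CPM in hCD33M and 3902 CPM in control. All 9 ratios of hCD33m over hCD33M were above 0, 4 passed 1.5-fold, and the median log2 ratio was 0.39. Since the study chose these genes on these samples, their count is not independent evidence of a direction. The difference was present across the cells and not in a few of them. After each cell was thinned to 2000 UMIs, the median cell held 16 UMIs of these genes in hCD33m, 13 in hCD33M and 7 in control. The highest 10% of cells began at 28 UMIs in hCD33m, 21 in hCD33M and 13 in control. The lowest 10% ended at 8, 7 and 3 UMIs, so the isoforms were nearest to each other in cells with the fewest early transcripts.

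**Figure D2:**
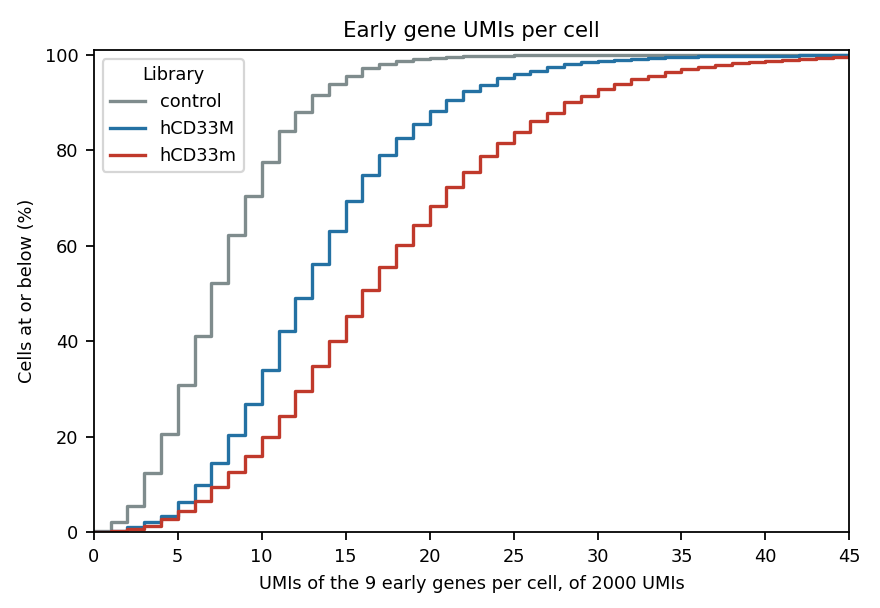
Percent of cells (vertical axis) that hold at most the number of UMIs on the horizontal axis from the 9 early genes, after thinning each cell to 2000 UMIs, with 1 line per library. The hCD33m line lies to the right of the hCD33M line, which lies to the right of the control line, with medians of 16, 13 and 7 UMIs.

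Shares of cells with a UMI followed the levels. Fos was found in 48.7% of thinned hCD33m cells (interval 47.3 to 50.1), 30.8% of hCD33M cells (29.4 to 32.3) and 9.05% of control cells, and before thinning in 68.5%, 54.2% and 21.6%. At least 3 Fos UMIs were found in 14.1% of hCD33m cells and 4.25% of hCD33M cells. Jun was found in nearly every cell, 93.3% of thinned hCD33m and 92.0% of hCD33M cells (98.0% of both before thinning), and so differed in level more than in share. Cells of a type that should lack these genes were too few to measure free RNA, which gives UMIs in cells that do not express a gene. Some other early genes also differed between the libraries within cells of like Fos count, after thinning, and others did not. In cells with 0 Fos UMIs (2479 hCD33m and 2670 hCD33M cells), Fosb had a log2 ratio of 0.91, Egr1 of 0.92 and Klf2 of 0.88. Part of these cells held Fos before thinning, since 3314 hCD33m and 2092 hCD33M cells had it then and 2356 and 1190 after. Cells of like thinned count may thus still differ in Fos level. In cells with at least 3 Fos UMIs (683 and 164 cells), the same genes had log2 ratios of 0.90, 0.70 and 1.33. Zfp36l1 had log2 ratios of 0.01 (-0.05 to 0.07) in cells with 0 Fos UMIs, -0.06 (-0.14 to 0.02) with 1 or 2 and 0.27 (0.11 to 0.45) with at least 3, and Rhob had 0.07, 0.16 and 0.24.

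Promoter sequences are shown for 4 early genes that were higher in hCD33m, to set a known element of early gene promoters beside their levels. The 250 bases before the transcription start are from RefSeq on GRCm38.p6, printed 5′ to 3′ on the gene's strand, and capitals mark the letters TGACG on either strand. TGACG is one arm of the cyclic AMP response element (CRE) TGACGTCA, the binding site of CREB and ATF factors, so each full CRE also counts as a match of its arm.
Fos, chr12:85473640-85473889, plus strand: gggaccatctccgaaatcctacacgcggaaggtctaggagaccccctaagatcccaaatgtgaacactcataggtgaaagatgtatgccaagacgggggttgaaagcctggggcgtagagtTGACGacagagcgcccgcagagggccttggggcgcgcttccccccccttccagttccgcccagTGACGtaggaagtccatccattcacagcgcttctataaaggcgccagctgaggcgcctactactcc
Fosb, chr7:19310046-19310295, minus strand: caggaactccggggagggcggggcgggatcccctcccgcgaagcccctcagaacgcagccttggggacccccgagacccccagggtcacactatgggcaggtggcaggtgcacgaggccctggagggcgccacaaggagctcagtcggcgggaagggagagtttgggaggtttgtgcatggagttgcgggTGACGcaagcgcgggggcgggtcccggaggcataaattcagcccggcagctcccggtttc
Klf2, chr8:72318812-72319061, plus strand: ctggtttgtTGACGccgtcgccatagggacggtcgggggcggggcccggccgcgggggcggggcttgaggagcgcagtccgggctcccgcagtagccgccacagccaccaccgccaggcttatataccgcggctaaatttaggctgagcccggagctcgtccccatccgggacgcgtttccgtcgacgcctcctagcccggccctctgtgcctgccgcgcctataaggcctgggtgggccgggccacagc
Dusp1, chr17:26508473-26508722, minus strand: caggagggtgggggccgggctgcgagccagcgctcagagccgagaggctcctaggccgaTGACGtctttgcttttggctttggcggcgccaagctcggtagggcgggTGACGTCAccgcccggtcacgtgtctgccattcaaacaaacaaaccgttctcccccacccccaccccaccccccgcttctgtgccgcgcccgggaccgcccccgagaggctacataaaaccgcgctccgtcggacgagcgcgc
Fos carries 2 such arms in this window, Fosb 1, Klf2 1 and Dusp1 3, and those of Dusp1 include a full CRE. Of higher genes not printed here, Klf4 carries 1 and Ccl3 carries 0. Promoters were found for 21 of the 34 higher genes and for 5384 of all measured genes. The full CRE was present in 4 of the 21 (19.0%, Dusp1, H2-Aa, Hlf and Ppp1r15a) and in 3.38% of all 5384, and the arm in 11 of the 21 (52.4%) and in 33.7% of all. Of the 11 lower genes with a promoter, 1 (9.09%) had the full CRE and 3 (27.3%) had the arm. The search for the arm was added after the sequences had been seen. The AP-1 element TGANTCA was in none of the 21 and in 4.92% of all promoters of this length, and the Kruppel-like element CCACCC was in 8 of the 21 (38.1%) and in 36.3% of all, both counted on either strand. The CArG box, another promoter element in the planned search, was in 0 of the 21 higher genes, 0 of the 11 lower genes and 1.30% of all. These are counts of letters in a short window and do not show binding.

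Ccl4 and Ccl3 had the largest ratios of the higher genes after Egr3, and here control lay between the isoforms. Ccl4 and Ccl3 encode inflammatory chemokines and are neighbours on chromosome 11 (GRCm38, chr11:83662584-83664683 and chr11:83647844-83649355). Ccl4 was at 102 CPM in hCD33m, 25.0 CPM in hCD33M and 48.0 CPM in control (4.09-fold between the isoforms, log2 2.03, 1.92 to 2.15). Ccl3 was at 90.7 CPM in hCD33m, 26.7 CPM in hCD33M and 42.5 CPM in control (log2 1.76, 1.65 to 1.88). Ccl2, the ligand of the monocyte receptor Ccr2, was instead in the order of the early genes, at 34.5 CPM in hCD33m, 14.5 CPM in hCD33M and 8.03 CPM in control (log2 1.26, 1.10 to 1.42). Ccl6 was at 160, 99.2 and 122 CPM in hCD33m, hCD33M and control (log2 0.69, 0.62 to 0.75). These were 4 of 11 measured chemokines and cytokines, and the list median was 0.08. Ccl12 was at 130 CPM in hCD33m and 123 CPM in hCD33M, and Il1a, at 83.0 and 93.5 CPM, and Il6, at 17.0 and 21.9 CPM, had ratios below 0.

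Few cells held most of the Ccl4 UMIs, and the difference between the isoforms was also present without them. Of the Ccl4 UMIs in hCD33M, 299 of 746 came from 1 cell, and 2 cells held 50% of them, against 18 cells in hCD33m. Cells with at least 20 UMIs of Ccl3 and Ccl4 together were 37 of 4835 in hCD33m (0.765%, interval 0.539 to 1.05), 6 of 3860 in hCD33M (0.155%, 0.0571 to 0.338) and 9 of 4043 in control (0.223%, 0.102 to 0.422). Without those cells the summed Ccl3 and Ccl4 level was still 106 CPM in hCD33m and 30.8 CPM in hCD33M (log2 1.78, 1.68 to 1.89, against 1.90 in all cells). Ccl4 was found in 6.56% of thinned hCD33m and 2.05% of hCD33M cells, and Ccl3 in 10.1% and 3.06%, against 14.2% and 5.60% and 21.4% and 9.46% before thinning. The log2 ratio of Ccl4 was 2.77 when each cell was thinned to 2000 UMIs and 3.70 in cells of 3000 to 8000 UMIs.

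Genes of MHC class II antigen presentation were also higher in hCD33m, but most of their UMIs came from a handful of cells. H2-Aa was at 41.7 CPM in hCD33m, 19.9 CPM in hCD33M and 30.3 CPM in control (log2 1.07, 0.93 to 1.21). Cd74, the invariant chain that escorts class II molecules, followed at 120, 60.2 and 95.9 CPM (log2 1.00, 0.92 to 1.08). H2-Eb1 (log2 1.05) and H2-Ab1 (log2 0.98) completed the 4 higher genes among 12 measured antigen presentation genes. Cells with at least 20 UMIs of these 4 genes were 29 in hCD33m (0.600%, interval 0.402 to 0.860), 8 in hCD33M (0.207%, 0.0895 to 0.408) and 10 in control (0.247%, 0.119 to 0.454), and they held 84.7%, 77.5% and 81.5% of the UMIs. In the other cells the summed level was 38.1 CPM in hCD33m and 27.6 CPM in hCD33M (log2 0.46, 0.34 to 0.59), under the 1.5-fold limit. In the class II-rich cells P2ry12 was at 1857 CPM in hCD33m and 1800 CPM in hCD33M, below its level over all cells. Of the 9 listed monocyte markers none reached 20 CPM. Cells rich in Plac8, Ly6c2 and Chil3 had been left out by the rule, so these levels are only what that rule left. The summed level of the 9 was 21.7 CPM in hCD33m, 12.5 CPM in hCD33M and 15.4 CPM in control. Of the 9 lymphocyte markers 6 were at 0 in hCD33m and 7 in hCD33M, and Cd79a, a gene of B cells, which carry class II molecules, had 25 UMIs in hCD33m and none in the others. The part of such cells in the class II difference was not tested. Class I genes lay the other way, with H2-K1 at 424 CPM in hCD33m and 544 CPM in hCD33M (log2 -0.36, -0.39 to -0.33) and H2-D1 at 549 and 660 CPM (log2 -0.27, -0.29 to -0.24).

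**Figure D3:**
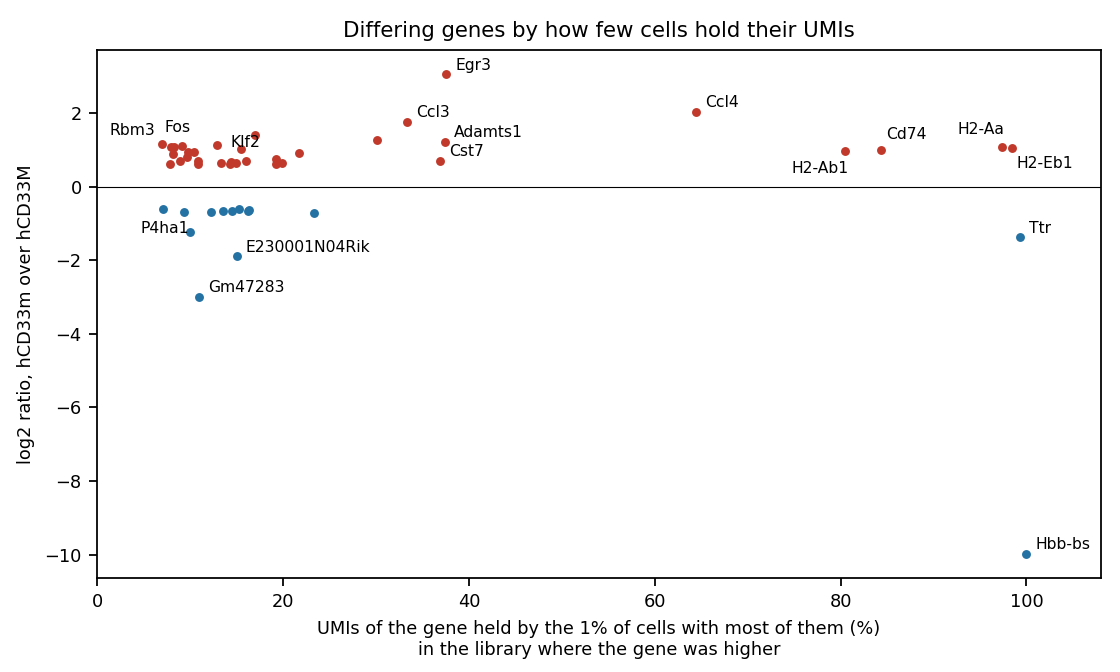
The log2 ratio of hCD33m over hCD33M (vertical axis) of the differing genes against the percent of a gene's UMIs held by the 1% of cells with most of them, in the library where the gene was higher (horizontal axis). Red points are higher and blue points lower in hCD33m. Fos, Klf2 and Rbm3 lie at the left, and class II genes, Ttr and Hbb-bs lie at the right, where 1% of cells hold most of the UMIs. Hba-a1 and Hba-a2 have no finite ratio and are not drawn.

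Among the higher genes outside these families, Rbm3 was the most abundant. Rbm3 encodes an RNA-binding protein that is induced by mild cooling (chrX:8138975-8145880). It was at 177 CPM in hCD33m, 79.3 CPM in hCD33M and 138 CPM in control (2.24-fold between the isoforms, log2 1.16, 1.09 to 1.23), so hCD33M stood below both other libraries. Cirbp, the other cold-inducible RNA-binding gene listed, was at 119.5 CPM in hCD33m, 81.9 CPM in hCD33M and 141 CPM in control (log2 0.54, 0.47 to 0.62), and was under 1.5-fold. After thinning, the Rbm3 ratio was much the same in cells with 0 Fos UMIs (log2 1.17), with 1 or 2 (1.20) and with at least 3 (1.14). Wdfy1, an endosomal adaptor of Toll-like receptor signalling, was at 87.5 CPM in hCD33m, 40.8 CPM in hCD33M and 43.5 CPM in control (log2 1.10, 1.01 to 1.20), so the other 2 libraries were nearly level. In the order hCD33m, hCD33M and control, which is kept below, Ildr2 was at 29.4, 11.1 and 14.9 CPM (log2 1.40, 1.22 to 1.58). Adamts1, a secreted protease, was at 34.5, 14.9 and 14.1 CPM (log2 1.22, 1.06 to 1.37). Ramp1, a partner of the receptor for calcitonin gene-related peptide, was at 73.0, 41.7 and 57.5 CPM (log2 0.81, 0.71 to 0.91). Neat1, the nuclear RNA that builds paraspeckles, was at 128, 78.4 and 69.0 CPM (log2 0.71, 0.64 to 0.78). Cst7, a cystatin of disease-associated microglia, was at 29.8, 18.3 and 20.6 CPM (log2 0.71, 0.56 to 0.86). The clock gene Nr1d2 was at 31.1, 19.4 and 26.3 CPM (log2 0.68, 0.54 to 0.83). The remaining higher genes were Mymk, Coro2a, Hlf, Gt(ROSA)26Sor, Fam104a, 2900060B14Rik and Chst8, with log2 ratios from 0.60 to 0.74.

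Fewer genes were lower in hCD33m, and apart from 3 hemoglobin genes no list held more than 1 of them. Gm47283, on the Y chromosome (chrY:90784738-90816464), was at 7.98 CPM in hCD33m, 63.4 CPM in hCD33M and 64.8 CPM in control (7.95-fold lower than in hCD33M, log2 -2.99, -3.18 to -2.81). Mid1, a ubiquitin ligase of microtubules, was at 26.5 CPM in hCD33m, 62.1 CPM in hCD33M and 63.5 CPM in control (log2 -1.23, -1.34 to -1.11). In both genes hCD33M and control were level and hCD33m stood alone. Mid1 (chrX:169685199-170005736) spans the boundary of the pseudoautosomal region, the stretch shared by X and Y, in laboratory mice, and reads of near-identical copies there may be split between genes. Of the 8 other sex-linked genes measured, 6 had ratios below 0, none passed 1.5-fold and the median log2 ratio was -0.11. Eif2s3y, on the Y chromosome, had the lowest of these (log2 -0.25, -0.34 to -0.17) and was at 61.3 CPM in hCD33m and 73.1 CPM in hCD33M. The noncoding RNA E230001N04Rik was at 8.76 CPM in hCD33m, 32.5 CPM in hCD33M and 24.1 CPM in control (log2 -1.89, -2.08 to -1.71). P4ha1, a collagen prolyl hydroxylase, was the most abundant of the lower genes, at 271 CPM in hCD33m, 413 CPM in hCD33M and 311 CPM in control (log2 -0.61, -0.65 to -0.57). It was found in 40.0% of thinned hCD33m and 56.2% of hCD33M cells (74.0% and 85.0% before thinning). Creld2, a chaperone of the endoplasmic reticulum, was at 43.5, 70.4 and 52.1 CPM (log2 -0.69, -0.79 to -0.60). In P4ha1 and Creld2 control lay nearer to hCD33m. The transcription factor Myc was at 18.8, 28.6 and 31.8 CPM (log2 -0.60, -0.75 to -0.46). Epha2, Ttll3, Gm37233, Rgs7bp, Chid1 and Gm4951 had log2 ratios from -0.73 to -0.64.

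For another 4 of the 16 lower genes, 3 hemoglobin genes and Ttr, nearly all hCD33M UMIs were in 1 or 2 cells. Of 4208 Hbb-bs UMIs in hCD33M, 4173 were in 1 cell, against 5 UMIs in the whole hCD33m library. The hemoglobin genes Hba-a1 and Hba-a2 were at 49.8 and 36.5 CPM in hCD33M and not listed in the other libraries. Ttr, the transthyretin gene of the choroid plexus, had 1257 and 508 of its 1822 hCD33M UMIs in 2 cells, and 831 of its 839 hCD33m UMIs in 1 cell. Without the cells with at least 100 UMIs of the gene, Ttr was at 0.224 CPM in hCD33m and 1.91 CPM in hCD33M (log2 -3.09, -4.37 to -2.02) and Hbb-bs at 0.140 and 1.17 CPM (log2 -3.07, -4.78 to -1.71), so both kept their direction at levels far below 20 CPM. Hba-a1 and Hba-a2 are near-identical copies between which reads can be split.

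**Figure D4:**
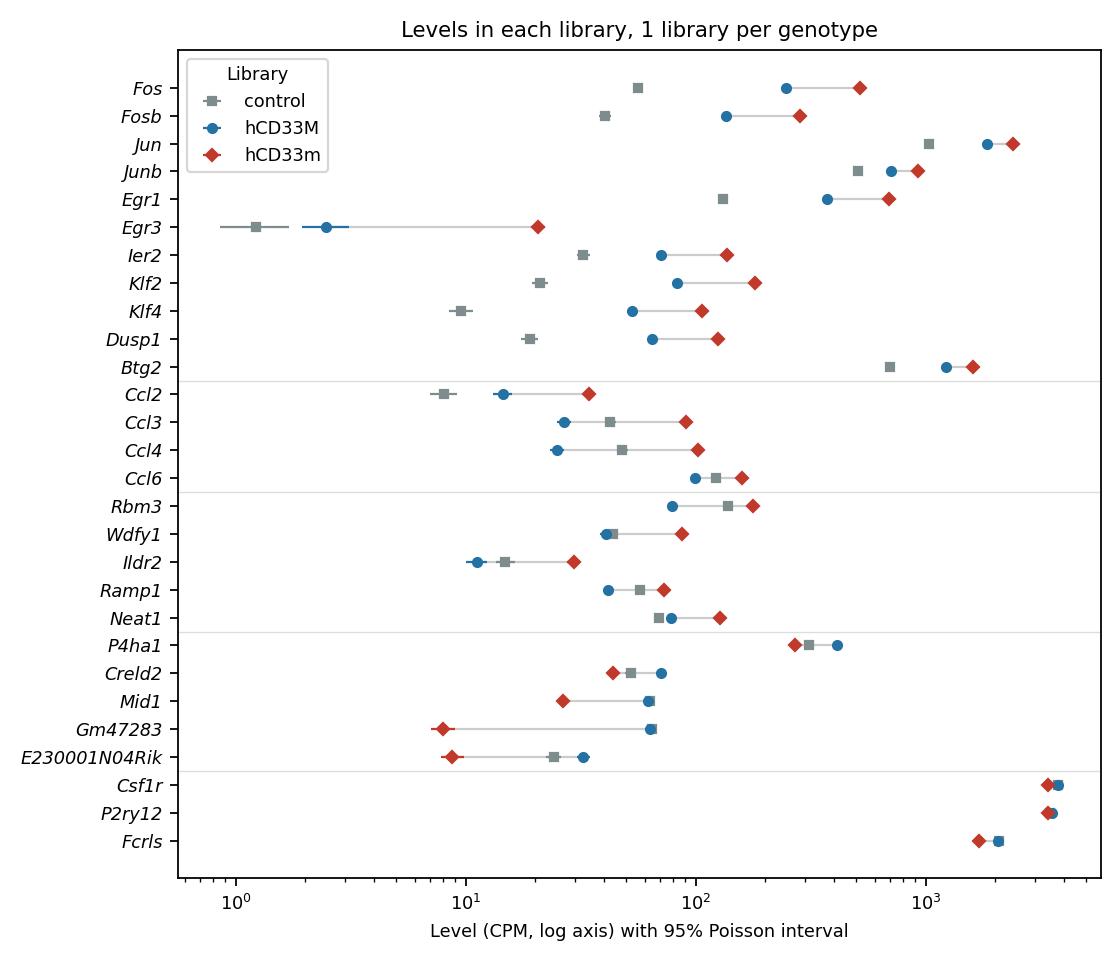
Level in CPM (horizontal log axis) of selected genes in control (grey squares), hCD33M (blue circles) and hCD33m (red diamonds), with 95% Poisson intervals and 1 library per genotype. In the top block hCD33m is above hCD33M, which is above control, as for Fos at 520, 248 and 56.2 CPM, while for Ccl3, Ccl4 and Rbm3 control lies between the isoforms and the homeostatic genes at the bottom nearly coincide.

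The place of control split the higher genes evenly. Control lay below both isoforms for 17 of the 34 higher genes, among them Fos, Fosb, Egr1, Egr3, Ier2, Klf2, Klf4, Dusp1, Ppp1r15a, Ccl2 and Neat1. It lay between them for the other 17, among them Ccl3, Ccl4, Ccl6, Rbm3, Wdfy1, Ildr2, Ramp1, Cst7 and the class II genes. For no higher gene was control above both. Over all measured genes control was below both in 39.6%, between in 29.7% and above both in 30.7%. The higher genes were picked for a wide gap between the isoforms, which itself leaves more room for control to lie between them. The shares over all genes are therefore not a like comparison. For some genes control and hCD33M were nearly level, as for Ier3, Nfkbiz and Adamts1 (below both) and Wdfy1 (between), so their place is uncertain. Of the 16 lower genes, control was above both isoforms for 4 (Gm47283, Mid1, Epha2 and Myc) and below both for Hbb-bs and Ttr.

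The genes that define resting microglia were nearly level between the isoforms. None of 24 measured homeostatic genes passed 1.5-fold, and their median log2 ratio was -0.07 (interval -0.19 to 0.003). Csf1r, the receptor on which microglia depend for survival, was at 3397 CPM in hCD33m and 3772 CPM in hCD33M (log2 -0.15). The most negative values were Crybb1 (log2 -0.28) and Olfml3 (-0.28), and the most positive was Cst3 (0.11). Tmem119 was at 1517 CPM in hCD33m and 1729 CPM in hCD33M (log2 -0.19, -0.21 to -0.17). None of 13 identity transcription factors passed, with Sall1 at 433 and 437 CPM. The 7 genes the study names as homeostatic had a median of -0.08.

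Of mouse Siglecs and of genes that signal through ITIMs and ITAMs, none passed 1.5-fold. Mouse Cd33 was at 471 CPM in hCD33m, 468 CPM in hCD33M and 523 CPM in control (log2 0.01, -0.02 to 0.04). Siglece, another mouse receptor with ITIMs, was at 72.8 CPM in hCD33m and 99.1 CPM in hCD33M (log2 -0.45, -0.52 to -0.37), and Siglech, at 2190 and 2089 CPM, had a log2 ratio of 0.07. The 21 measured ITIM and ITAM genes had a median of 0.02, and the lowest was Cd300a, an inhibitory receptor, at 177 and 230 CPM (log2 -0.38, -0.43 to -0.33). Siglece and Cd300a lay below the 5th percentile of all measured genes, which was -0.22. Ptpn6, the phosphatase SHP-1 that ITIMs recruit, was at 230 and 214 CPM (log2 0.10), and Syk, the kinase downstream of ITAMs, was at 106 and 124 CPM (log2 -0.23, -0.29 to -0.16). Trem2 was at 2653 and 2481 CPM (log2 0.10) and its adaptor Tyrobp at 2752 and 2550 CPM (log2 0.11). None of 14 engulfment receptors passed, with Lrp1 (log2 0.25) and Stab1 (log2 -0.34) at the extremes and a median of 0.05. None of 21 Alzheimer risk genes passed. Apoe, the lipid carrier, was at 552 CPM in hCD33m, 455 CPM in hCD33M and 659 CPM in control (log2 0.28, 0.25 to 0.31), and Ms4a6b was at 138 and 168 CPM in hCD33m and hCD33M (log2 -0.28, -0.34 to -0.23).

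Several lists lay mostly on one side of 0, and no Fc receptor, complement, interferon-stimulated, heat shock or ribosomal protein gene passed 1.5-fold. All 7 measured Fc receptor genes were below 0, with a median log2 ratio of -0.22, among them Fcgr1 at 402 CPM in hCD33m and 495 CPM in hCD33M (log2 -0.30, -0.33 to -0.27) and Fcgr4 at 15.5 and 21.6 CPM (log2 -0.48). All 9 measured complement genes were below 0, with a median of -0.08. C5ar1, the receptor of the C5a fragment, was at 76.1 and 106 CPM (log2 -0.48, -0.55 to -0.40), while C1qa, the first component's A chain, was at 9405 and 10484 CPM (log2 -0.16). Of 10 measured interferon-stimulated genes 1 was above 0, and the median was -0.22, with Ifi27l2a at 38.1 and 49.2 CPM (log2 -0.37). Of 11 measured heat shock chaperones 2 were above 0, and the median was -0.15 (interval -0.44 to 0.09). Hspa8, the constitutive Hsc70, was at 667 CPM in hCD33m, 923 CPM in hCD33M and 479 CPM in control (log2 -0.47, -0.49 to -0.44). Summed heat shock levels were 3203 CPM in hCD33m, 4088 CPM in hCD33M and 2727 CPM in control, so the isoforms were in the opposite order to the early genes while both were above control. Of 83 measured cytoplasmic ribosomal protein genes 79 were above 0, with a median of 0.07. Disease-associated microglia genes had a median of 0.11, and 2 of 16, Ccl6 and Cst7, passed 1.5-fold, while Cd9 was at 1385 and 1105 CPM (log2 0.33) and Lpl at 21.6 and 15.2 CPM (log2 0.51).

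**Figure D5:**
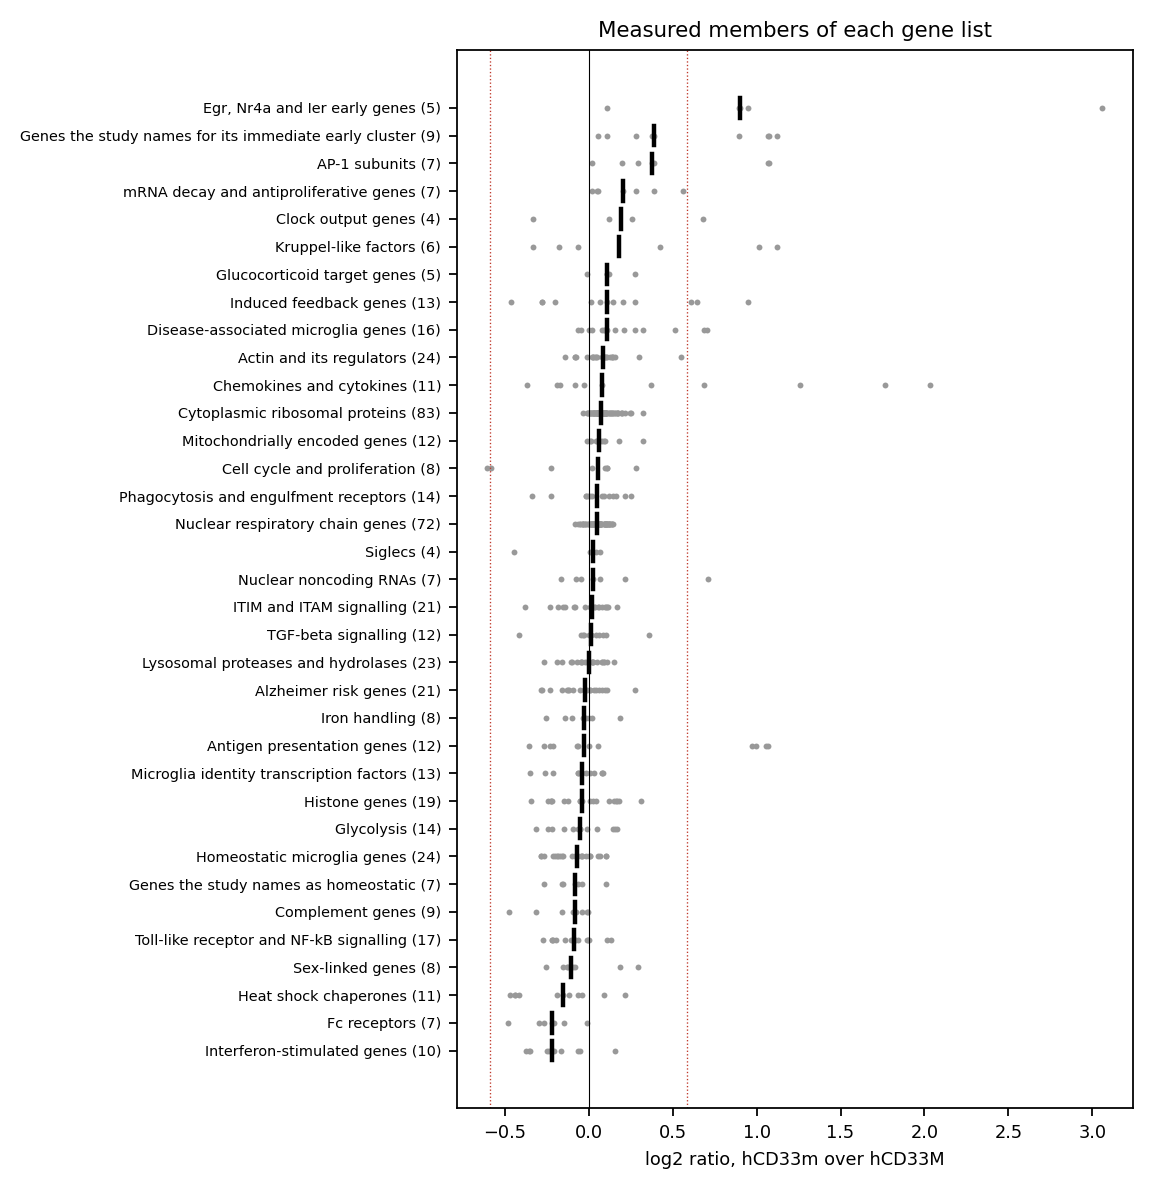
The log2 ratio of hCD33m over hCD33M (horizontal axis) for each measured member (grey points) of the gene lists with at least 4 measured members (vertical axis, number measured in brackets), with the median as a black bar and 1.5-fold as dotted lines. Egr and Ier genes have the highest median, 0.90, and Fc receptor and interferon-stimulated genes the lowest, -0.22.

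The transgenes sit at the Rosa26 locus, so its genes were read separately. Gt(ROSA)26Sor, the noncoding RNA of the locus (chr6:113067428-113077333), was at 37.7 CPM in hCD33m, 24.3 CPM in hCD33M and 32.8 CPM in control (log2 0.63, 0.50 to 0.76). Of 15 measured genes within 1 Mb, only it was higher and only Ttll3, at 27.8 CPM in hCD33m and 44.0 CPM in hCD33M (log2 -0.66, -0.78 to -0.54), was lower. None of 11 measured genes within 1 Mb of Cx3cr1, the gene whose promoter drives Cre, passed 1.5-fold, and Cx3cr1 itself was at 3658 CPM in hCD33m and 3865 CPM in hCD33M.

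The direction of most of these ratios was the same at different depths per cell, while the size varied for some. When cells were grouped by their total into 4 groups that began at 2000, 4000, 6000 and 10000 UMIs, 30 of the 34 higher genes and 9 of the 16 lower genes had the same direction with an interval clear of 0 in each of them. Fos had log2 ratios of 1.04, 1.00, 1.10 and 1.11 from the shallowest to the deepest cells. Cd74 had 2.20, 1.20, 0.50 and 0.96, Ccl2 1.40, 0.88, 2.12 and 1.12, and Ildr2 0.42, 1.34, 1.60 and 1.54. Ccl4 had ratios of 3.73, 3.52 and 3.70 in the first 3 groups and 0.94 in the deepest cells. In the deepest cells it was at 80.3 CPM in hCD33m and 42.0 CPM in hCD33M. In the group from 6000 UMIs it was at 123 and 9.45 CPM. Of the 594 hCD33M UMIs in the deepest cells, 299 were in 1 cell, and its part in the smaller ratio was not tested.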

How the data were processed

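The authors aligned reads of 10x 3′ libraries to mm10 with Cell Ranger, loaded the UMI counts into Seurat (minimum of 200 genes for a cell and of 3 cells for a gene), and deposited raw counts with no normalization. A gene listed at 0 or not listed may have been removed by that filter. The methods state fewer cells than their stated limits leave, so the cells here are not the study's exact set. Counts were summed per library over the cells kept and scaled as CPM, with exact 95% Poisson intervals for levels, conditional binomial intervals for ratios, Clopper-Pearson intervals for shares and order-statistic intervals for list medians (Python 3.11.15, numpy 2.4.6, scipy 1.17.1, pandas 2.3.3, matplotlib 3.10.9). No p is given, since each genotype had 1 library. The contrast, 45 gene lists and members were chosen with earlier results of these data known. Named genes were the 12 highest and up to 12 lowest ratios among differing genes with at least 50 CPM, up to 4 members per list with the largest ratios, the study's early and homeostatic genes, Cd33, sex-linked genes and cell type markers. Other genes named were chosen after their values were seen. Positions are GENCODE M21 on GRCm38, by symbol. Tested on simulated data for hCD33m against hCD33M over 6769 genes, the rule picked 0 of 6569 unchanged genes, 26 of 50 changed by 1.5-fold and 50 of 50 changed by 2-fold. The counting interval held the true ratio for 95.3% of the unchanged genes, so the simulation had no spread between mice or libraries. These counts therefore do not tell how often the rule would pick genes through that spread. There were 16 alternatives planned and 2 added after the data were seen.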

Additional observations from a re-analysis of the deposited data

Results flagged for a closer look

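Differences in Fos were also present in barcodes outside the comparison, with control as the background. In barcodes with fewer than 2000 UMIs (1107 hCD33m, 1787 hCD33M and 1775 control), Fos was at 693 CPM in hCD33m, 301 CPM in hCD33M and 75.1 CPM in control (log2 ratio of the isoforms 1.20, 1.05 to 1.36). Of the 34 higher genes 29 had the same direction there, 22 with an interval clear of 0. The 5 others were Cd74 (log2 -0.50, -1.15 to 0.13), H2-Ab1 (log2 -0.64), H2-Aa (-0.49), Cst7 (-0.40) and H2-Eb1 (-0.17), none of them with an interval clear of 0. There all 16 lower genes had the same direction, 11 with an interval clear of 0. Cells left out for border macrophage genes (93, 46 and 53) had Fos at 626 CPM in hCD33m, 254 CPM in hCD33M and 133 CPM in control. Cells left out for monocyte genes (31, 17 and 19) had Fos at 788, 387 and 154 CPM. These monocyte sets were not alike, with P2ry12 at 661 CPM in hCD33m, 1634 CPM in hCD33M and 583 CPM in control (log2 ratio of the isoforms -1.30, -1.55 to -1.06). The part of that difference in the ratios of the monocyte cells was not tested. In the border macrophage cells Ier2 (log2 1.16), Klf2 (1.08), Egr1 (0.64) and Jun (0.32) also had intervals clear of 0. Zfp36l1 lay clearly the other way in the border macrophage cells (-0.30, -0.42 to -0.18). In the monocyte cells the intervals of Ier2 (0.06, -0.51 to 0.64), Klf2 (0.34, -0.05 to 0.73), Egr1 (0.52, -0.04 to 1.09) and Jun (0.27, -0.02 to 0.56) were not clear of 0. Other early genes had clear intervals there, namely Fosb (1.21, 0.31 to 2.19), Dusp1 (0.95, 0.16 to 1.80) and Klf4 (0.74, 0.18 to 1.33). Zfp36l1 also lay clearly the other way in the monocyte cells (-0.64, -1.11 to -0.18). These cells come from the same 3 libraries and are not replicates of the comparison.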

How the results depend on the processing

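No paired analysis was possible because each genotype had 1 library, and no library could be left out. Against 34 higher and 16 lower genes, a minimum of 10 CPM gave 52 higher, a minimum of 50 CPM gave 17 and 6, and no minimum level gave 294 and 232. A smaller planned limit on the fold gave 112 and 114, and a limit of 2-fold 14 and 7. The other alternatives, among them other cell filters, TMM factors from edgeR 4.0.16, median of ratios scaling and thinning, gave 29 to 45 higher and 11 to 18 lower genes. Without the 1% of cells with most UMIs of each gene, 24 of the 34 and 10 of the 16 were retained. The 10 higher genes lost fell under 20 CPM in both libraries, with log2 ratios such as 0.81 for Coro2a, 0.78 for Cst7 and 0.63 for Cd74. Fos kept a log2 ratio of 1.06 to 1.10, Klf2 1.11 to 1.19 and Rbm3 1.15 to 1.20 over all alternatives, while Ccl4 ranged from 1.97 to 3.70. Ttr turned to 0.31 with a mitochondrial limit of 5%, and the cause was not tested. Depth limits rare genes such as Egr3, with 74 UMIs in hCD33M.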
